A study of Mus musculus with 49 samples.

Results

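The genes described here belong to cholesterol synthesis: Hmgcs1, Idi1, Fdft1, Sqle, Lss, Cyp51 and Dhcr7 encode enzymes of the pathway, and Insig1 encodes a regulator of it. They were taken by symbol, and all 8 were found among the 20489 genes measured in mouse embryonic stem cells. The study asked how the cofactor Trim24 shapes the response of these cells to the tumour suppressor p53. RNA-seq was available for 49 libraries in 16 groups, in 4 experiments that were compared only within themselves.

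Every library came from embryonic stem cells of strain 129S6/SvEvTac, grown in serum and leukemia inhibitory factor. In the time course, cells with a degron tag on endogenous Trim24 received 1 µM doxorubicin, a DNA-damaging drug that activates p53, for 2, 4, 8 or 12 h. They received it either alone or together with 500 nM dTAG13, the compound that degrades the tagged protein, and untreated cells stood for 0 h (3 libraries a group). In a second experiment the same tagged genotype, without doxorubicin, was left untreated or given dTAG13 (3 libraries a group). The RING experiment compared 3 groups of 4 libraries at 4 h of doxorubicin: Trim24-expressing cells, Trim24-degraded cells, and LigNull cells. LigNull cells, called ligase-null here, carry cysteine-to-alanine changes in the RING domain of endogenous Trim24, and their genotype label is degron-tagged Trim24. Wild-type cells were untreated or given doxorubicin for 4 h (2 libraries a group). Edited lines were grown from picked clones. In the time course dTAG13 and doxorubicin ran for equal hours, the hours of dTAG13 without doxorubicin are not in the labels, and no group had dTAG13 without a degron, so dTAG13 itself and the loss of Trim24 cannot be told apart. In bulk RNA, fewer cells and less RNA per cell cannot be told apart either.

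Cells make cholesterol from acetyl-CoA through mevalonate, isoprenoid units, squalene and a chain of sterols. When membrane sterol is low, SCAP escorts the transcription factor SREBP2 from the endoplasmic reticulum to the Golgi, where it is cut, and the released fragment switches on the enzyme genes. INSIG proteins hold SCAP back when sterol is plentiful, and Insig1 is itself a target of this factor. Liver X receptors, which sense oxidised sterols, drive the opposite arm, the export of cholesterol.

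SREBP factors bind sterol regulatory elements and often act beside NF-Y, which binds CCAAT boxes, and stretches of the promoters that hold such letters are shown for that reason. Windows from 250 bases before to 50 bases after the start site (RefSeq, GRCm38.p6) were taken for 6 genes, not for Sqle and Fdft1. On either strand, TCACNCCA, the core of a sterol regulatory element, was found in the window of 1 gene, Hmgcs1, 137 to 130 bases before its start, and 4.36% of all 32851 windows hold it. CCAAT was found in at least 1 window of each of the 6 genes, and 37.4% of all windows hold it. Dhcr7 has 3 windows, and 1 of them holds CCAAT. The motifs do not overlap in the stretches shown. Each stretch runs 5′ to 3′ on the strand of the gene, with the motif letters of either strand in capitals (ATTGG is CCAAT on the other strand).
Hmgcs1, chr13:119690101-119690330, plus strand: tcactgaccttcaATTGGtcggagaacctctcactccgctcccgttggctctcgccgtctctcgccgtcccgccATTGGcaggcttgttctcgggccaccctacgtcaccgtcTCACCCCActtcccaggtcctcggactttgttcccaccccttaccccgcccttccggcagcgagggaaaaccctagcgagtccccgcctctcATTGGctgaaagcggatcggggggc
Idi1, chr13:8885541-8885605, plus strand: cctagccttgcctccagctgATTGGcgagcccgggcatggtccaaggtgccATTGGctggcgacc
Lss, chr10:76531523-76531567, plus strand: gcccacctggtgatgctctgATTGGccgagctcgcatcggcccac
Cyp51, chr5:4104702-4104746, minus strand: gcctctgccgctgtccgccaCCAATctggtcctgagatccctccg
Dhcr7, chr7:143830109-143830189, plus strand: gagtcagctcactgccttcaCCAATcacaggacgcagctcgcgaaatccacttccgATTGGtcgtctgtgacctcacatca
Insig1, chr5:28071176-28071220, plus strand: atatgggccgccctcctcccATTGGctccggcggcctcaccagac
By the GENCODE M21 annotation, the stretches of Hmgcs1, Lss and Insig1 lie upstream of the annotated gene, and those of Idi1, Cyp51 and Dhcr7 lie inside its outermost ends. A match is a description of letters, and a window without one says nothing of factor binding.

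The libraries held 14422098 to 35185256 reads over genes (median 19520026), and the 8 genes together took 0.0731 to 0.182% of them. The lowest count of any of the 8 in any library was 343 reads. Levels in CPM are reads scaled by the library total and by the authors' TMM factor for that library. Embryonic stem cell markers summed to between 1156 and 5670 CPM in every library. The 9 fibroblast or feeder markers summed to between 17.0 and 69.2 CPM, with 5 of those 9 under 1 CPM on average. Primitive endoderm markers (7 genes) summed to 665 to 750.2 CPM in the experiment without doxorubicin and to 12.9 to 100.3 CPM elsewhere. The untreated libraries of that experiment carry a treatment label that names activated p53, but their titles read untreated, and their level of Mdm2, which p53 induces, was 184 ± 5.54 CPM (SD, n = 3) against 181 ± 4.65 CPM at 0 h of the time course (SD, n = 3). A list of 8 p53 target genes summed to 1479 ± 81.1 CPM in them. That sum was 1107 ± 47.1 CPM at 0 h and 4338 ± 118 CPM at 4 h of doxorubicin in the time course (SD, n = 3 each). Trim24 transcript does not check its degradation, which acts on protein: it was at 141 ± 3.41 CPM in degraded and 120 ± 2.52 CPM in Trim24-expressing cells at 4 h (SD, n = 3 each).

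All 8 genes were expressed at every time. On GRCm38, the genes called at 12 h are Hmgcs1 (chr13:119690379-119708260), Sqle (chr15:59315077-59331192), Fdft1 (chr14:63145150-63179578, minus strand) and Insig1 (chr5:28071363-28078662). Divided by the length of their annotated exons, levels at 0 h of the time course ran from 62.8 ± 4.82 CPM per kb for Hmgcs1, HMG-CoA synthase, an early enzyme of the mevalonate branch, down to 6.59 ± 0.504 CPM per kb for Dhcr7, the reductase of the last step (SD, n = 3). Sqle (32.6 ± 1.51 CPM per kb), Fdft1 (31.3 ± 0.396) and Insig1 (30.5 ± 1.24) followed Hmgcs1 and did not differ from one another beyond their spread. Cyp51 (24.5 ± 0.485), Idi1 (21.2 ± 1.90) and Lss (8.53 ± 0.344) came next. The annotated exons of Lss span 10787 bases over all its transcripts, the most of the 8, which lowers its value on this scale.

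Of the 8 genes, 3 fell after 8 h of p53 activation and 4 after 12 h, while Lss did not fall. A call needed both an adjusted p below 0.01 (limma, Benjamini-Hochberg over all genes tested) and a log2 difference of 0.75 or more, up or down. Values in log2 are differences of log2 CPM after a prior count of 8. The 3 lower genes at 8 h were Sqle, Fdft1 and Cyp51, against 18.3% of all genes tested called lower. The 4 lower genes at 12 h were Sqle, Fdft1, Insig1 and Hmgcs1, against 22.9%. As deposited, the share of the 8 genes called lower is above that of all genes called lower, on a background in which much of the transcriptome moved. In either direction, 7468 of 16497 genes tested were called at 8 h and 8726 of 16402 at 12 h. The share of the 8 called in either direction was not above these. With quantile normalization 2 genes were called at 12 h, and Cyp51 was not called at 8 h. The genes were chosen with earlier results of these data known, so these shares are a description only. None of the 8 was called at 2 h (3.74% of all genes in either direction) or at 4 h (18.7%).

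**Figure D1:**
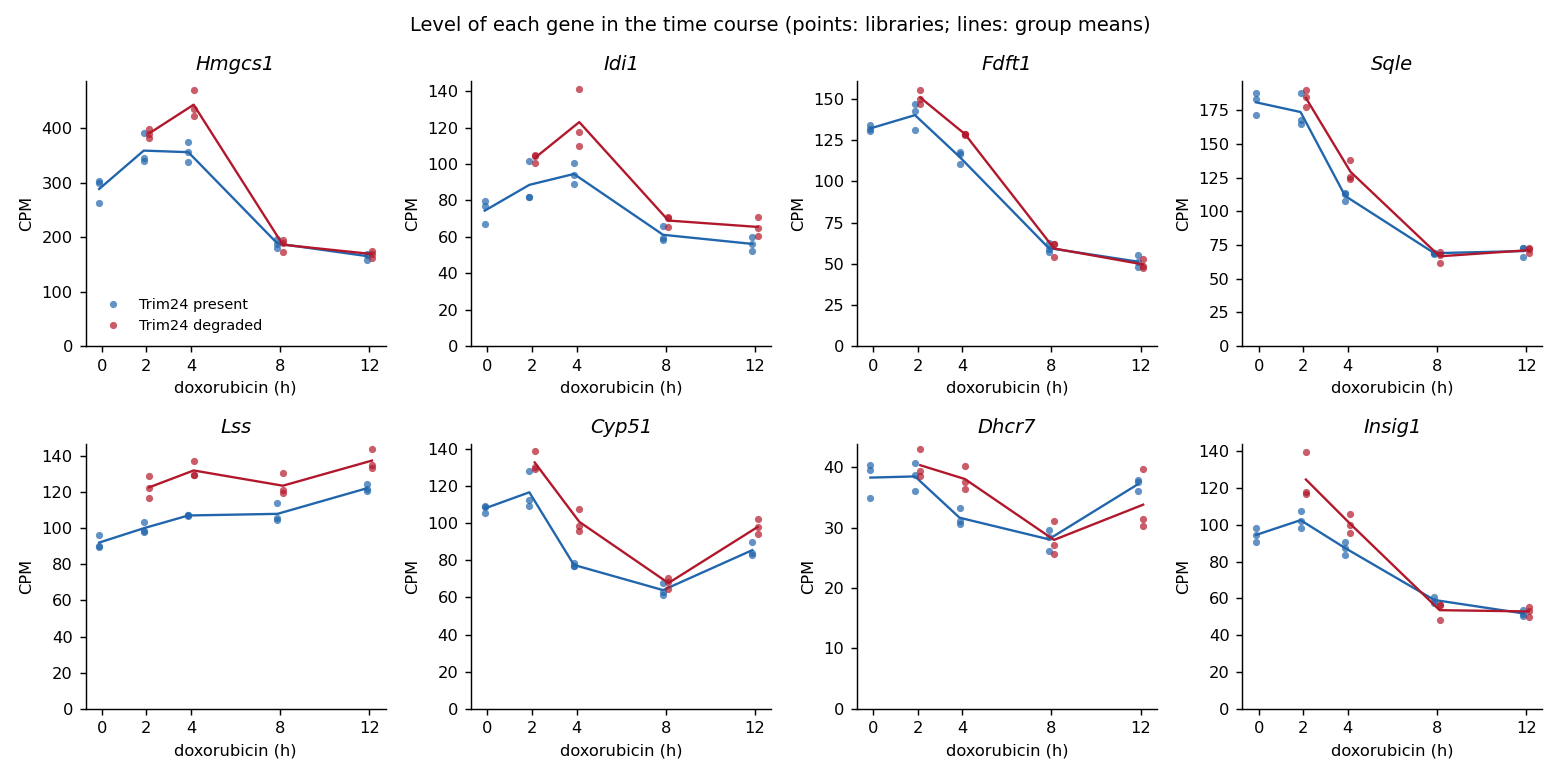
Level of each gene in CPM (vertical axes, starting at 0) against hours of doxorubicin; points are libraries (3 a group), lines join group means, blue marks cells with Trim24 and red cells with Trim24 degraded. Fdft1, Sqle and Insig1 are lower at 8 h than at 0 h and stay low at 12 h, and Hmgcs1 and Idi1 descend only after 4 h. Cyp51 and Dhcr7 are higher at 12 h than at 8 h, and Lss does not descend.

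Squalene epoxidase (Sqle) catalyses the first oxygen-dependent step and is a control point of the sterol branch. It stood at 188, 172 and 183 CPM at 0 h, at 113, 114 and 107 CPM at 4 h, at 69.4, 68.8 and 68.7 CPM at 8 h, and at 73.1, 65.9 and 72.7 CPM at 12 h. The groups at 4, 8 and 12 h lay wholly below that at 0 h. Its log2 difference from 0 h was −0.70 ± 0.0467 (SE) at 4 h, just short of the minimum, −1.39 ± 0.0676 at 8 h and −1.36 ± 0.0628 at 12 h. The adjusted p at 12 h was 1.1e-12.

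Fdft1 encodes squalene synthase, which commits isoprenoid units to sterols. It was at 132, 131 and 134 CPM at 0 h, at 117, 118 and 110 CPM at 4 h, at 62.4, 57.1 and 59.1 CPM at 8 h, and at 55.1, 50.8 and 48.0 CPM at 12 h. Most of its descent lay between 4 and 8 h, where it was called (log2 −0.95 ± 0.0694), and its difference from 0 h reached −1.36 ± 0.0635 at 12 h (adjusted p = 1.2e-12). It was one of 2 members called lower over that interval, where 7.70% of all genes were.

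The other was Hmgcs1, whose course was not monotone. Its level was 299, 263 and 303 CPM at 0 h, 338, 374 and 357 CPM at 4 h, 198, 180 and 188 CPM at 8 h, and 168, 159 and 170 CPM at 12 h. At 2 and 4 h every library exceeded every library at 0 h, by 0.31 on the log2 scale in each case (adjusted p = 0.0028 and 7.8e-05), which is under the minimum. Without the trend and robust step of limma these adjusted p were 0.078 and 0.016. Hmgcs1 then fell by 0.92 between 4 and 8 h (−0.55 after quantile normalization, not called) and was 0.80 ± 0.0639 below 0 h at 12 h (adjusted p = 2.2e-09). Idi1, the isomerase that balances the isoprenoid units, was likewise above 0 h at 2 and 4 h and below it later, with means of 74.4, 88.5, 94.5, 61.1 and 56.1 CPM from 0 to 12 h. None of the differences of Idi1 was called.

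Insig1 was at 98.2, 90.6 and 94.6 CPM at 0 h, at 61.0, 57.6 and 58.8 CPM at 8 h and at 53.6, 50.5 and 51.4 CPM at 12 h. Its log2 difference from 0 h was 0.12 ± 0.0613 at 2 h and −0.11 ± 0.0503 at 4 h, with overlap between the libraries. It was −0.67 ± 0.0709 at 8 h, short of the minimum, and −0.86 ± 0.0614 at 12 h, where Insig1 was called (adjusted p = 4.5e-10). Cyp51, the demethylase of lanosterol, stood at 109, 106 and 109 CPM at 0 h, 67.9, 61.1 and 62.9 CPM at 8 h, and 89.7, 84.1 and 82.7 CPM at 12 h. Its difference at 8 h, −0.75 ± 0.0701, only just met the minimum and missed it when replicate 1 or 3 at 0 h or replicate 2 or 3 at 8 h was left out (−0.72 to −0.75). After quantile normalization it was −0.51. Between 8 and 12 h Cyp51 was higher again by 0.42 (adjusted p = 1.6e-06) and Dhcr7 by 0.40 (adjusted p = 3.9e-05), with no overlap between the libraries of the 2 times, and at 0.0090 and 0.010 without the trend and robust step of limma. Both are under the minimum, and no member was called over that interval (6.42% of all genes in either direction) or between 2 and 4 h (9.80%). These time points share libraries with one another, so their values are not separate evidence.

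Lanosterol synthase (Lss), which closes the first sterol ring system, went the other way. It was at 89.8, 96.3 and 89.9 CPM at 0 h, at 104, 106 and 114 CPM at 8 h and at 120, 124 and 122 CPM at 12 h. Its log2 difference was 0.23 ± 0.0687 at 8 h and 0.41 ± 0.0580 at 12 h (adjusted p = 4.4e-06), under the minimum, and the groups did not overlap. At 8 h the libraries of the other 7 genes all lay below those at 0 h, against 39.9% of all genes tested, and at 12 h those of 6 genes did, against 41.0%. Across the 27 libraries of the time course, the Pearson correlation of a gene's log2 level with the mean of the other 7 was 0.64 to 0.97 for 7 genes and −0.29 for Lss. These libraries share the time points, so the correlations describe the course and are not evidence of more than that.

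Embryonic stem cell markers also fell over the time course. Their sum went from 5635 CPM at 0 h to 1202 CPM at 12 h (group means, ranges 5610 to 5670 and 1156 to 1257 CPM). At 12 h 9 of 10 markers were called lower, against 22.9% of all genes, but the part of this in the result was not tested. Scaling bears on these values too. Quantile normalization and median centring moved the median of all genes at 8 and 12 h by −0.13 to −0.22 on the log2 scale. Relative to that median, Sqle was at −1.40 at 12 h as deposited and −0.98 after quantile normalization, and Fdft1 at −1.40 and −1.04. Both were called at 8 and 12 h under each scaling. Hmgcs1 at 12 h was called as deposited and after median centring but was at −0.35 after quantile normalization, and Insig1 at 12 h was then at −0.70, both short of the minimum. The TMM factor matters as well. Summed, the 8 genes were at 1009, 637 and 640 CPM at 0, 8 and 12 h (group means). As a plain share of reads they fell less. They took 0.0900 to 0.0961% at 0 h, 0.0731 to 0.0748% at 8 h and 0.0733 to 0.0752% at 12 h. Single genes were not tested on plain shares.

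Wild-type cells at 4 h of doxorubicin gave the same directions, with smaller differences for 7 of the 8 genes (Insig1 was at −0.14 against −0.11), though the sizes were not tested against each other. Sqle was at 138 and 133 CPM untreated and at 107 and 103 CPM after doxorubicin (log2 −0.37 ± 0.0853), and Cyp51 at 102 and 96.5 against 80.0 and 76.6 CPM (−0.34 ± 0.0855). Hmgcs1 was at 362 and 333 CPM untreated and 410 and 372 CPM after doxorubicin, a log2 difference of 0.17 ± 0.0874. No member was called there (10.3% of all genes in either direction). All 8 genes had the sign they had at 4 h in the tagged line, higher for Hmgcs1, Idi1 and Lss and lower for the other 5, and the 2 experiments share no library. Only Sqle and Cyp51 had an adjusted p below 0.05 in wild-type cells (limma). How many of all genes shared their sign between the 2 experiments was not counted. With 2 libraries a group the spread in wild-type cells rests almost wholly on that of other genes.

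Other genes of the pathway were counted over lists chosen by role. At 12 h 22.9% of all genes tested were called lower and 30.3% higher, and the lists are read against those shares. Of 14 further enzymes from mevalonate to sterol, 4 fell and 0 rose at 8 h, and 4 fell and 1 rose at 12 h (median log2 −0.34, against 0.04 over all genes), so the share that fell at 12 h was near that of all genes. The enzymes that fell at 12 h were Ebp (log2 −1.73) and Sc5d (−1.48), which act on late sterols, Fdps (−1.41), farnesyl diphosphate synthase, and Mvd (−0.98), which decarboxylates mevalonate diphosphate. Pmvk, phosphomevalonate kinase, rose by 0.89.

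Among 12 genes of SREBP processing and sterol sensing, 1 rose and 0 fell at 12 h. It was Scap, the escort itself, which went from 36.9 ± 3.92 CPM at 0 h to 164 ± 16.7 CPM at 12 h (log2 2.15). Srebf2, which encodes SREBP2, was at 130 ± 8.92 and 93.0 ± 7.48 CPM (−0.48, not called). Of 10 genes of cholesterol uptake and related targets, 1 fell and 2 rose at 12 h. Scarb1, the HDL receptor gene, rose by 1.47 and Lrp8 by 1.06. Mylip, which encodes a ubiquitin ligase, rose at 2, 4 and 8 h (by 0.81 at 2 h and 0.95 at 8 h).

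Of 12 genes of cholesterol export, storage and the liver X receptors, 8 rose, 0 fell and 4 were not called at 12 h, against 30.3% of all genes higher, with a median log2 of 1.66 against 0.04 over all genes. At 0 h 5 of these 12 were under 1 CPM on average, and 1 gene had 0 reads in all 3 libraries. Genes that low could hardly be called lower, so the absence of falls and the median partly follow from the low start. Abca1, the exporter to lipid-poor apolipoprotein, went from 9.07 ± 1.21 to 50.5 ± 6.17 CPM (log2 2.43) and Abcg1, its partner exporter, from 15.5 ± 0.871 to 119 ± 2.10 CPM (2.92). The largest differences were those of Cyp27a1 (5.30) and Cyp46a1 (3.55), which hydroxylate cholesterol, from under 1 CPM at 0 h, so the prior count understates them. Of 17 fatty acid synthesis genes, 6 fell and 3 rose at 12 h. The largest were Scd2 (−2.58) and Scd1 (−2.02), desaturases, Lpin1 (2.02), a phosphatidate phosphatase, and Acsl3 (−1.71), an acyl-CoA synthetase. Of 11 genes of prenylation and other mevalonate products, 3 fell and 0 rose, a share lower that was near that of all genes (among them Fntb at −0.87 and Pdss1 at −0.84, and most of all Rabggtb, which went from 174 ± 3.40 to 43.5 ± 4.26 CPM).

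**Figure D2:**
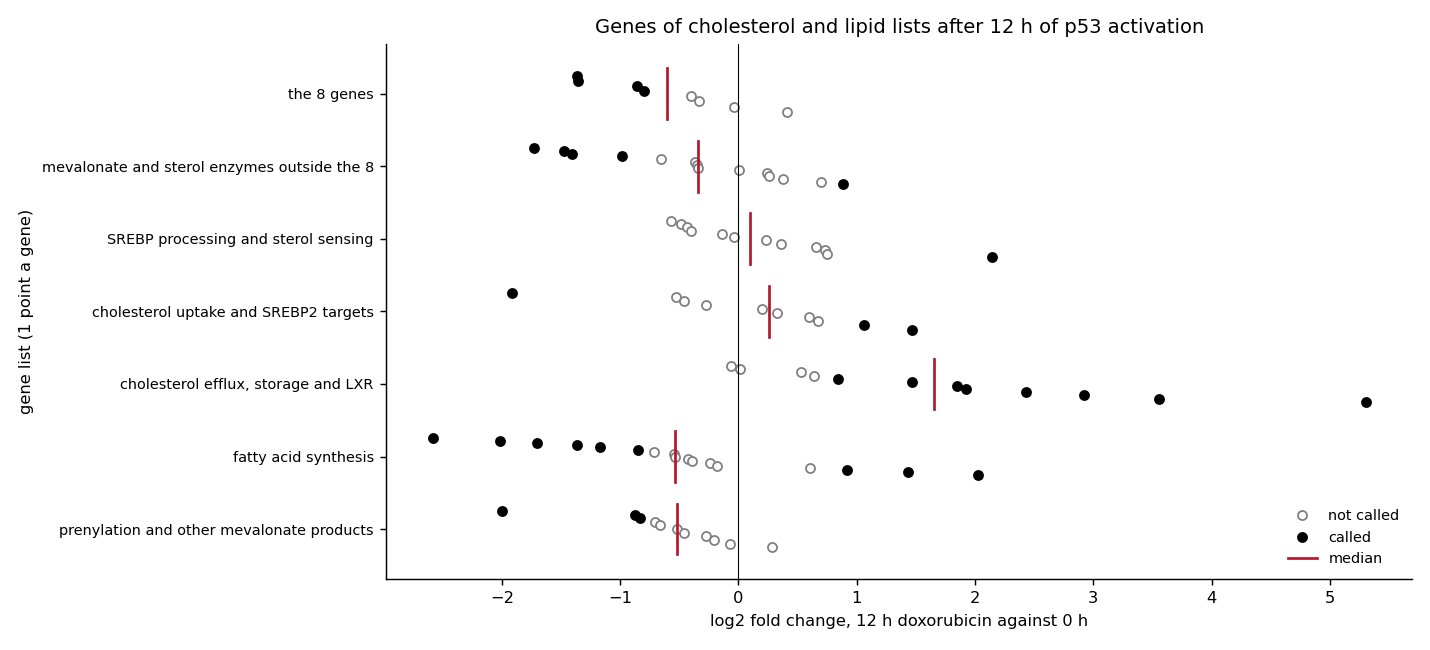
Log2 fold change after 12 h of doxorubicin against 0 h (horizontal axis) for every tested gene of each list (vertical axis, 1 point a gene); filled points were called, open points were not, and red bars are list medians. The 8 genes and the further enzymes lie mostly below 0 with medians of −0.60 and −0.34, and the export and storage genes mostly above it with a median of 1.66.

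Degradation of Trim24 went with slightly higher levels of the cholesterol synthesis genes in 3 experiments that share no library. No member reached the minimum fold change on Trim24 loss in any of 6 comparisons. Among all genes, calls in either direction on Trim24 loss made up 0.338, 1.15, 1.58 and 4.11% at 2, 4, 8 and 12 h, 0.0781% without doxorubicin and 1.15% in the RING experiment. At 8 h 5 of the 8 differences were below 0 and at 12 h 2 were, while at 2 and 4 h, without doxorubicin and in the RING experiment all 8 were above 0. At 4 h of the time course, without doxorubicin and in the RING experiment, every degraded library exceeded every Trim24-expressing library for each of the 8 genes. The same held for 13.9, 6.56 and 14.9% of all genes tested in those comparisons.

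**Figure D3:**
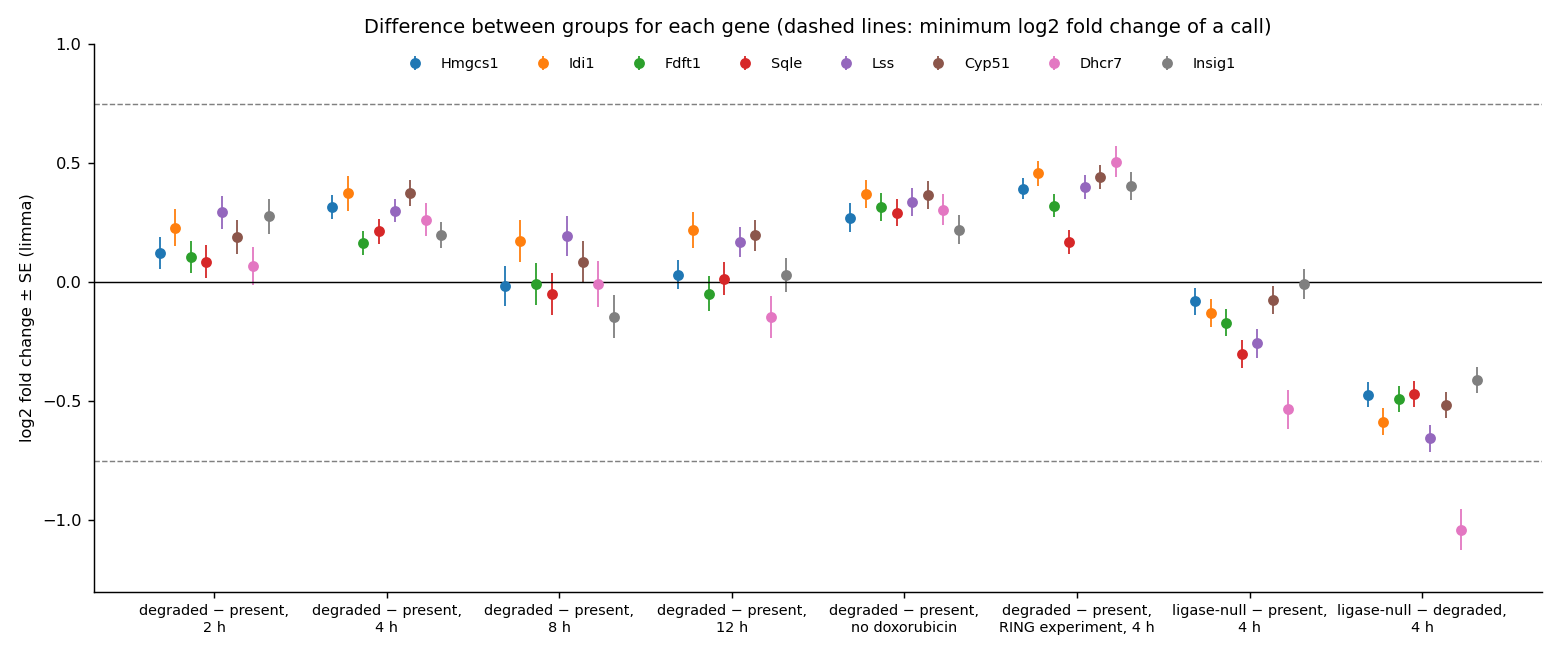
Log2 fold change with its standard error from limma (vertical axis) for each of the 8 genes in each comparison of Trim24 status (horizontal axis); dashed lines mark the minimum log2 fold change of a call. All 8 points lie above 0 at 2 and 4 h of the time course, without doxorubicin and in the RING experiment, they straddle 0 at 8 and 12 h, and all lie below 0 for ligase-null cells.

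A looser threshold asked only for an adjusted p below 0.05, whatever the fold change. Without doxorubicin 7 of the 8 genes were higher at it, and they were 7 of the 43 genes higher at that threshold among 15360 tested (0.280%). Insig1 was the exception (log2 0.22 ± 0.0616, adjusted p = 0.13). Cyp51 was at 174, 187 and 180 CPM in untreated and at 232, 228 and 237 CPM in degraded cells (log2 0.37 ± 0.0585, adjusted p = 0.00030). Idi1 was at 93.8, 97.8 and 97.1 CPM against 123, 122 and 128 CPM (0.37 ± 0.0600, adjusted p = 0.00035), and Lss at 137, 134 and 140 CPM against 179, 173 and 167 CPM (0.34 ± 0.0592, adjusted p = 0.0012). The other 5 genes were higher by 0.22 to 0.32. None of the 8 genes passed that threshold when the spread was moderated without a trend or robust step (adjusted p 0.15 to 0.58) or when no filter on low genes was applied. From 4 to 7 passed when a library was left out, with 4 without untreated replicate 2.

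At 4 h of the time course all 8 genes were higher at that looser threshold, against 5.25% of all genes. Cyp51 was at 78.5, 77.1 and 77.1 CPM with Trim24 and at 98.7, 108 and 95.8 CPM without it (log2 0.38 ± 0.0551, adjusted p = 3.9e-05). Idi1 was at 89.0, 101 and 93.9 CPM against 110, 141 and 118 CPM (0.37 ± 0.0731), and Hmgcs1 at 338, 374 and 357 CPM against 423, 471 and 436 CPM (0.32 ± 0.0489). The smallest difference was that of Fdft1, at 117, 118 and 110 CPM against 129, 128 and 129 CPM (0.16 ± 0.0497, adjusted p = 0.032). Only Lss and Cyp51 passed without the trend and robust step, 4 genes passed without a filter, and 5 did without Trim24-expressing replicate 3. Embryonic stem cell markers moved the other way at 4 h, with 6 of 10 lower at the looser threshold and 0 higher. Of the 16138 genes tested, 1000 were lower at it. The part of the markers in the result was not tested.

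In the RING experiment all 8 genes were again higher in degraded cells at that threshold, against 15.3% of all genes. Sqle missed it without the trend and robust step (adjusted p = 0.087), without degraded replicate 6 (0.10) and without Trim24-expressing replicate 6 (0.054). The differences ran from 0.17 ± 0.0511 for Sqle (adjusted p = 0.015) to 0.51 ± 0.0662 for Dhcr7 (adjusted p = 3.8e-07). Dhcr7 was at 29.2, 30.3, 29.3 and 29.9 CPM in Trim24-expressing cells and at 44.1, 40.8, 47.7 and 37.2 CPM in degraded cells. Idi1 was at 66.1, 71.5, 71.8 and 71.6 CPM against 93.4, 91.1, 99.8 and 102 CPM (0.46 ± 0.0529, adjusted p = 3.0e-08). Degraded libraries of this experiment were the deeper ones, with 24492233 to 33893100 reads against 16669410 to 21072810. In them 6 of 10 embryonic stem cell markers were lower and 1 higher at the looser threshold. Of the 16313 genes tested, 1145 were lower at it. The part of depth or of the markers in the result was not tested.

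**Figure D4:**
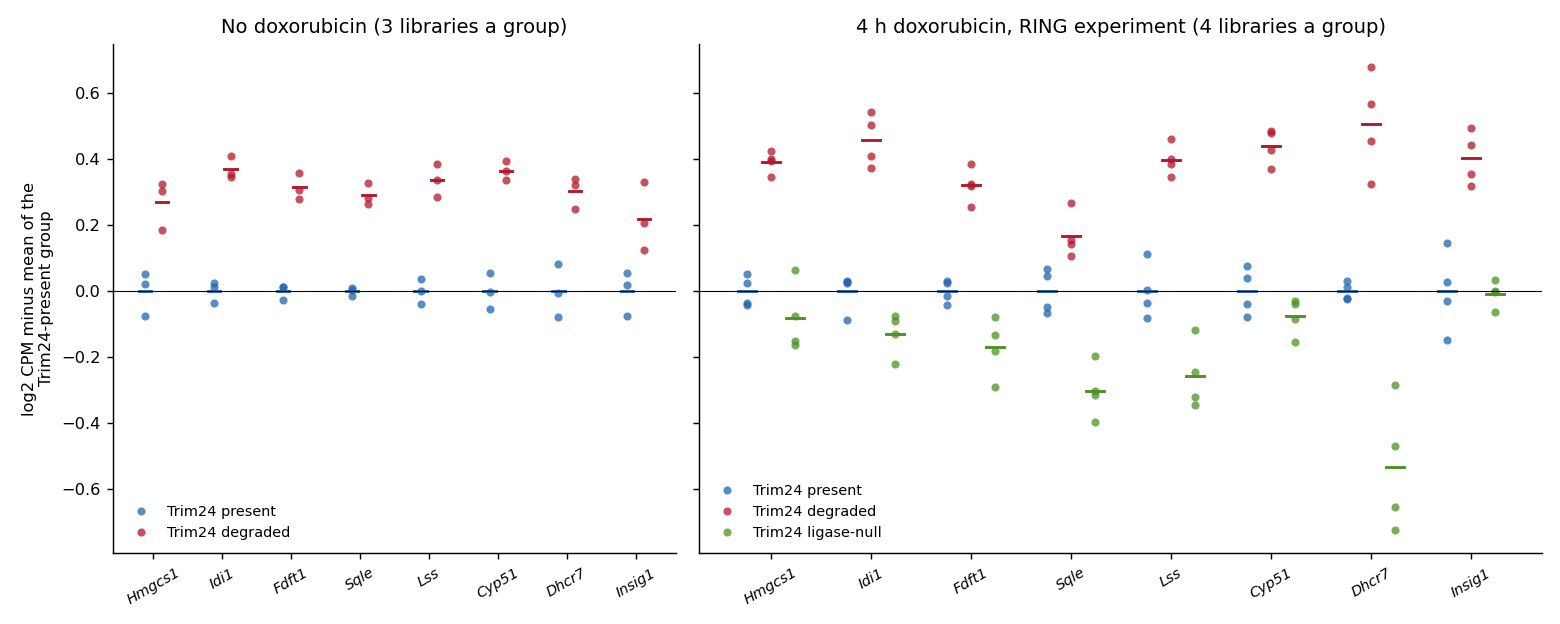
Log2 CPM of each library minus the mean of the Trim24-present group of its experiment (vertical axes) for the 8 genes (horizontal axes); points are libraries and bars are group means, with 3 libraries a group on the left and 4 on the right. Degraded libraries (red) lie above all Trim24-present libraries (blue) for each gene in both experiments, and ligase-null libraries (green) lie at or below 0 on average.

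Outside the 4 h and doxorubicin-free groups the picture was mixed. At 2 h all 8 log2 differences were above 0 (0.07 to 0.29), but Lss alone passed the looser threshold (adjusted p = 0.025, 0.644% of all genes higher). That count was 0 without replicate 1 or 2 of the Trim24-expressing or 1 or 3 of the degraded libraries, and 4 without Trim24-expressing replicate 3. At 8 h the differences ran from −0.14 for Insig1 to 0.19 for Lss with standard errors of 0.0843 to 0.0964, and 0 of the 8 passed by limma, at 10.9% of all genes in either direction. At 12 h Idi1, Cyp51 and Lss passed (0.22, 0.20 and 0.17), as did 13.4% of all genes in that direction. The count was 0 without degraded replicate 3, and 1 without degraded replicate 1 or Trim24-expressing replicate 1 or 3. Trim24 loss at another time was also set directly against that at 4 h. No member was called in these tests of the difference at 2, 8 or 12 h, where 0.0485, 0.113 and 3.51% of all genes were. The difference at 12 h from 4 h was below 0 at the looser threshold for Hmgcs1 (−0.28 ± 0.0781, adjusted p = 0.010) and Dhcr7 (−0.41 ± 0.116, adjusted p = 0.012). The same held for 13.4% of all genes, whatever the sign of their effect at either time. Hmgcs1 was at 0.32 at 4 h and 0.03 at 12 h, and Dhcr7 at 0.26 and −0.15. Without the trend and robust step the adjusted p of these 12 h against 4 h differences was 0.057 and 0.059, so neither then passed.

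Neighbouring steps followed in part. At the looser threshold 0.280, 5.25 and 15.3% of all genes were higher without doxorubicin, at 4 h and in the RING experiment. Of the 14 further enzymes, 3, 6 and 10 were higher in these comparisons, and 0 were lower. Mvd (log2 0.36, 0.26 and 0.54) and Msmo1 (0.43, 0.51 and 0.48), a sterol demethylase, were among them in each of the 3, and both are named here after their values were seen. Srebf2 differed by 0.16, −0.08 and −0.10 and passed in none of the 3. Of the 12 genes of SREBP processing, 0 were higher without doxorubicin or at 4 h and 3 in the RING experiment. Abca1 was higher at 4 h by 0.68, under the minimum, and was called in the RING experiment (0.75). It does not stand for the 12 genes of export and storage. In degraded against Trim24-expressing cells these summed to 762 ± 6.55 against 748 ± 11.6 CPM without doxorubicin (SD, n = 3). The sums were 549 ± 8.85 against 599 ± 39.7 CPM at 4 h (SD, n = 3) and 578 ± 18.7 against 587 ± 48.9 CPM in the RING experiment (SD, n = 4).

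Ligase-null cells did not share the higher levels. All 8 genes were lower in them than in degraded cells, with no overlap between the 4 libraries of each group, as were 25.2% of all genes. All 8 passed the looser threshold (30.3% of all genes lower), and Dhcr7 was called (log2 −1.04 ± 0.0860, adjusted p = 2.3e-10, 1.85% of all genes lower). Dhcr7 was at 24.3, 17.8, 18.7 and 21.3 CPM in ligase-null cells, below every library of both other groups. Lss followed with −0.66, Idi1 with −0.59 and Cyp51 with −0.52, and the smallest difference was that of Insig1 (−0.41).

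Against Trim24-expressing cells no member was called (6.95% of all genes in either direction). Dhcr7 (−0.53), Sqle (−0.30), Lss (−0.26) and Fdft1 (−0.17) were lower at the looser threshold, as were 22.0% of all genes, while Insig1 differed by −0.01 ± 0.0624 and Hmgcs1 by −0.08 ± 0.0557. Of the 14 further enzymes, 8 were lower and 0 higher at that threshold. Ligase-null cells are another clone and received no dTAG13, so the RING change and the clone cannot be told apart here, nor can the compound in the comparison with degraded cells. All 7 primitive endoderm markers were higher in them than in Trim24-expressing cells (summed 92.2 to 100.3 against 12.9 to 15.5 CPM). Trophoblast markers were also higher in sum (181 to 214 against 45.8 to 52.0 CPM), and neuroectoderm (121 to 143 against 201 to 224 CPM) and fibroblast markers (17.0 to 18.4 against 28.4 to 31.9 CPM) were lower. The part of these in the result was not tested.

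Levels set across experiments are beside one another only as values, since the experiments were run apart. Untreated tagged cells of the experiment without doxorubicin held Insig1 at 262, 287 and 280 CPM, against 94.5 ± 3.82 CPM at 0 h of the time course (SD, n = 3). They held Cyp51 at 180 ± 6.77 against 108 ± 2.14 CPM and Hmgcs1 at 458 ± 20.7 against 289 ± 22.1 CPM. These are the libraries in which primitive endoderm markers summed to 699.9 to 750.2 CPM, against 61.8 to 66.1 CPM at 0 h.

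The genes whose log2 level followed the mean of the 8 most closely over the 27 libraries of the time course were not of the pathway. Of 18121 genes compared, the 10 highest Pearson correlations were those of Srek1 (0.97), Epc1, Nr1d2, Mthfd2, Ica1, Glyr1, Ate1, Rap1b, Spag9 and Ezh2 (0.96). Of 76 genes on the pathway lists, 2 were among the 100 nearest, and Mvd was at rank 83. All these libraries share the same time points, on which many genes move together.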

How the data were processed

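Total RNA libraries (stranded TruSeq) were sequenced, and the authors used bcl2fastq 2.17 or 2.20, STAR (mm10) and featureCounts over protein-coding genes. The deposited values are TMM-scaled log2 CPM that the authors computed with edgeR after a prior count of 8. Reads with several matches were assigned to a random one, which makes genes with close copies uncertain. Reads were recovered from the deposited log2 values, and 100% came out whole within 0.01. The total of 14422098 to 35185256 reads sets the precision, and read counts cover counting error only. CPM in the text leaves out the prior count. Exon lengths are from GENCODE M21 (GRCm38).

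The tables carry replicate numbers but not separate cultures, so p-values measure the spread between these libraries. Groups were compared within a table by limma 3.58.1 (trend, robust) in R 4.3.3 on the log2 values. Genes entered a test if they lay 0.5 above the floor of −1.48 in at least n libraries, n being the size of the smaller group. In several comparisons limma's prior degrees of freedom were very large, and the p-values there rest mainly on the spread of all genes. The fit was tested on simulated data. Alternatives were limma-voom on recovered reads, quantile normalization, median centring, no filter, a filter of 1.5, no trend or robust step, a looser threshold, a replicate block, a fit of every group together, and leaving out each library. The 8 genes are described in every library, with Srebf2, Abca1, up to 4 called genes a list by size of change and the 10 nearest genes by correlation. Trim24, Mdm2 and the summed list of p53 targets served as checks. The genes and lists were chosen with earlier results of these data known. Some list genes enter the counts but are not reported here by name.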

Additional observations from a re-analysis of the deposited data

Results flagged for a closer look

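Idi1 in replicate 4 of the Trim24-expressing cells of the RING experiment lay apart from the other 3 libraries of its group, at 66.1 CPM against 71.5 to 71.8 CPM. The gap to its nearest neighbour was 0.948 of the range of the group on the log2 scale. This was 1 of 24 sets of 4 libraries examined, and about 1 in 20 is flagged by chance. Without that library the log2 difference of Idi1 between degraded and Trim24-expressing cells was 0.43.

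The effect of Trim24 loss differed between 12 and 4 h for Hmgcs1 (difference of log2 fold changes −0.28) and Dhcr7 (−0.41), by a test of the difference itself at an adjusted p under 0.05 by limma. Neither passed without the trend and robust step.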

How the results depend on the processing

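With the looser threshold in place of the minimum fold change, the count of the 8 genes was 1, 7, 8 and 7 for activation at 2, 4, 8 and 12 h, 5, 6 and 4 for the intervals from 2 to 4, 4 to 8 and 8 to 12 h, and 2 in wild-type cells. For Trim24 loss it was 1, 8 and 3 at 2, 4 and 12 h, 7 without doxorubicin and 8 in the RING experiment, for ligase-null cells 4 against expressing and 8 against degraded cells, and 2 for 12 h against 4 h. Median centring gave 5 calls at 8 h and 4 between 4 and 8 h, and quantile normalization gave 2 at 12 h and 1 between 4 and 8 h.

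At the looser threshold, Trim24 loss at 2 h gave 0 genes after median centring, without a filter, without the trend and robust step and with the replicate block, and 2 with all groups in the fit. At 4 h it gave 4 without a filter and 2 without the trend and robust step, and without doxorubicin 0 in both. At 8 h it gave 3 after quantile normalization, 2 after median centring and 1 with all groups in the fit. At 12 h it gave 1 after median centring and 0 without the trend and robust step. Leaving out a library gave 0 to 4 genes at 2 h, 5 to 8 at 4 h, 0 to 2 at 12 h and 4 to 7 without doxorubicin. The cause of these shifts was not tested, beyond the fewer samples of the last.

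Differences near 0 changed sign, none of them called. After median centring these were Dhcr7 at 2 h of activation (−0.016), Lss between 4 and 8 h (−0.12), and, for Trim24 loss at 8 h, Hmgcs1 (0.024), Fdft1 (0.033) and Dhcr7 (0.034). After quantile normalization they were Dhcr7 at 12 h (0.0039), Hmgcs1 between 2 and 4 h (0.10), Sqle between 8 and 12 h (−0.024), Insig1 in ligase-null against expressing cells (0.030), Fdft1 for Trim24 loss at 12 h (0.0037) and, for loss at 8 h, Hmgcs1 (0.076), Sqle (0.033), Fdft1 (0.090) and Dhcr7 (0.067). Leaving out a library gave ranges across 0 for Dhcr7 at 2 h (−0.056 to 0.054), Hmgcs1 between 2 and 4 h (−0.049 to 0.056), Lss between 4 and 8 h (−0.029 to 0.035) and Insig1 in ligase-null against expressing cells (−0.057 to 0.041). For Trim24 loss they were Hmgcs1 (−0.052 to 0.033), Fdft1 (−0.043 to 0.057) and Dhcr7 (−0.084 to 0.051) at 8 h, Sqle (−0.033 to 0.041), Fdft1 (−0.095 to 0.0048) and Insig1 (−0.0070 to 0.072) at 12 h, and Lss (−0.044 to 0.027) and Insig1 (−0.0066 to 0.12) for 2 h against 4 h.

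Replicate numbers did not pair the libraries: correlations of same-numbered deviations ran from −0.21 to 0.20, and in no comparison were all above 0.1. With the replicate block, counts at the looser threshold for Trim24 loss were 8 at 4 h, 2 at 12 h, 7 without doxorubicin and 8 in the RING experiment, and 3 and 4 calls remained in number for activation at 8 and 12 h. The block could not be fitted for ligase-null cells, which share only number 4 with the other groups. limma-voom and the stricter filter moved no count by over 1.5 times.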
